A study of Mus musculus with 2 samples.

Results

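Antibody chain genes and genes of antibody secretion were followed across the spots of 2 spatial transcriptomic libraries of mouse pancreatic tumors. The set held 8 of the 19465 genes measured, chosen by symbol as Ighm, Ighg3, Ighj1, Igkv12-89, Jchain, Mzb1, Derl3 and Xbp1, and all 8 were found in both libraries. The genes were selected on earlier readings of these same libraries, in which several of them stood among the largest differences between the libraries. The difference between the libraries is therefore given below as a description, and nothing is supported with it.

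KPC cells, a mouse pancreatic ductal adenocarcinoma line, were grown orthotopically in the mouse pancreas after transduction with a short hairpin RNA against Zeb1 (KPC-shZEB1) or with the control vector (KPC-shV). The labels give 2 tumors per group without saying which tumor a library covers, and 1 library per group was analyzed here. The study's text places these tumors in immunocompetent mice given gemcitabine, an agent that the labels do not name. The methods list C57BL/6J, BALB/c and NSG mice 4 to 6 weeks old for the orthotopic model, of which NSG mice are immunodeficient and have no mature B cells, and the strain of these hosts is not stated more closely in the sources used here.

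Each barcoded spot of the Visium CytAssist slide captured probes hybridized to the RNA of a small tissue region, where cells of more than 1 type can lie together. The library labelled KPC-shZEB1 had 2220 spots and 140493626 unique molecular identifiers (UMIs), at a median of 59957.5 per spot, and the one labelled KPC-shV had 3552 spots and 172059528 UMIs, at a median of 52544.5. The 2 matrices shared 1718 barcodes, which come from the barcode list of the slides, and the level of the targeted gene did not settle the labels. Zeb1 was read at a log2 ratio, taken with KPC-shZEB1 as the numerator in every comparison of libraries, of -0.20 over all spots. Outside the acinar-rich spots defined below it was 0.30 (95% interval 0.20 to 0.40), not the direction of the label. The hairpin was given to the KPC cells, and a spot mixes these with host cells that also express Zeb1. A level over whole spots therefore cannot show the knockdown in tumor cells, and each library is called by its label alone. A level is the UMIs of a gene among every 1000000 UMIs of the same library or group of spots (CPM). With 1 library per group there was no test, and all intervals are 95% intervals that cover counting error only (exact, but approximate for isotype ratios), with no spread between animals. More antibody-secreting cells and more antibody RNA per cell cannot be told apart in spots.

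Plasma cells are B lineage cells that have become antibody factories. A heavy chain gene joins a variable, a diversity and a joining segment to a constant gene, and the constant gene sets the isotype, with mu giving IgM and gamma 3 giving IgG3. Most mouse antibodies pair this heavy chain with a kappa light chain. The endoplasmic reticulum of a plasma cell is widened under the control of the transcription factor Xbp1, as it also is in the acinar cells of the pancreas, which secrete digestive enzymes.

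Heavy and light chain genes were read at far higher levels under the KPC-shZEB1 label. Ighm, the constant gene of the IgM heavy chain (ENSMUSG00000076617, chr12:113418558-113422730 of GRCm38, minus strand), stood at 519 CPM (95% interval 515 to 523) under the KPC-shZEB1 label and at 22.1 CPM (21.4 to 22.8) under the label KPC-shV. Ighg3, the constant gene of the IgG3 heavy chain (ENSMUSG00000076615, chr12:113356224-113361232, minus strand), stood at 376 CPM (373 to 379) and 6.97 CPM (6.58 to 7.37), respectively. The log2 ratio was 4.55 (4.51 to 4.60) for Ighm and 5.75 (5.67 to 5.84) for Ighg3, so that the IgG3 gene differed more than the IgM gene. Ighg3 was the gene with rank 4 of 19011 by this ratio, among genes with at least 100 UMIs in the libraries together, and Ighm had rank 14.

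Ighj1 (ENSMUSG00000076621, chr12:113429781-113429833, minus strand) is a joining segment. A rearranged heavy chain mRNA carries 1 such segment, whatever its isotype, so an mRNA that uses Ighj1 can be counted under it and again under Ighm or Ighg3. Its level was 668 CPM (663 to 672) under the KPC-shZEB1 label and 33.5 CPM (32.7 to 34.4) under the KPC-shV label, a log2 ratio of 4.32 (4.28 to 4.35). Ighj4, the other joining segment of the feature list, stood at 89.1 and 5.77 CPM, which gave a log2 ratio of 3.95 (3.85 to 4.04). Both segments were thus higher under the KPC-shZEB1 label, and there were 7.50 UMIs of Ighj1 per Ighj4 UMI there and 5.81 under the KPC-shV label. The segments are shown because they are short and alike, with the 16 bases that they share at the 3′ end in capitals. They were read 5′ to 3′ from the RefSeq GRCm38.p6 genome at the GENCODE M21 positions and were 78.0% identical over 50 aligned bases.
Ighj1: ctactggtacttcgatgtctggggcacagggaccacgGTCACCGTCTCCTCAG
Ighj4: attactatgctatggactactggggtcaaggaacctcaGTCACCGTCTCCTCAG
The probes themselves were not given in the sources used here, so how far a probe separates such relatives was not tested.

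Igkv12-89 (ENSMUSG00000076534, chr6:68834846-68835307, minus strand), a variable segment of the kappa light chain, was read at 60.4 CPM (59.1 to 61.7) under the KPC-shZEB1 label and at 1.30 CPM (1.14 to 1.48) under the KPC-shV label. The lower level lay within the range of 12 genes not expected in this tissue (photoreceptor, sperm, egg, milk and heart muscle genes), which were read at 0.377 to 1.72 CPM under the KPC-shZEB1 label and at 0.575 to 2.84 CPM under the KPC-shV label. The log2 ratio of 5.54 (5.34 to 5.73) therefore sets a signal against a level that background alone can give. Igkv12-89 was 84.1% identical to Igkv12-38 and 72.4% identical to Igkv19-93 over their aligned transcripts. Reads of other kappa segments that share its probe sites cannot be told apart from its own.

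The promoter of Igkv12-89 is shown because V segment promoters are known for the octamer bound by Oct-1 and Oct-2 with the coactivator Pou2af1. The window is chr6:68835258-68835557 of GRCm38 (minus strand), 250 bases before to 50 bases after the annotated gene start, read from the RefSeq GRCm38.p6 genome, and capitals mark motif matches. The annotated start is the start codon (atg) with which the last 50 bases begin, so positions count from there and not from a start of transcription. Positions in the RefSeq windows below may count from a different point.
Igkv12-89: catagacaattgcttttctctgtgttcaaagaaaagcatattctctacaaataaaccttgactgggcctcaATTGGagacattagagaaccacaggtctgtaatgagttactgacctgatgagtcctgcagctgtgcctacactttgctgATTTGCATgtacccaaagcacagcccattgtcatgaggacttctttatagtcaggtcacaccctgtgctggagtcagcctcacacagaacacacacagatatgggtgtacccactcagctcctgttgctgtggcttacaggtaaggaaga
ATTTGCAT, the reverse complement of the octamer ATGCAAAT, lay with its first base at -100 from the start, and a CCAAT box (as ATTGG on this strand) at -179. Over both strands the octamer was found in 1.74% of the 32851 RefSeq promoter windows of the same length and CCAAT in 37.4%. A match is a match of letters only.

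**Figure D1:**
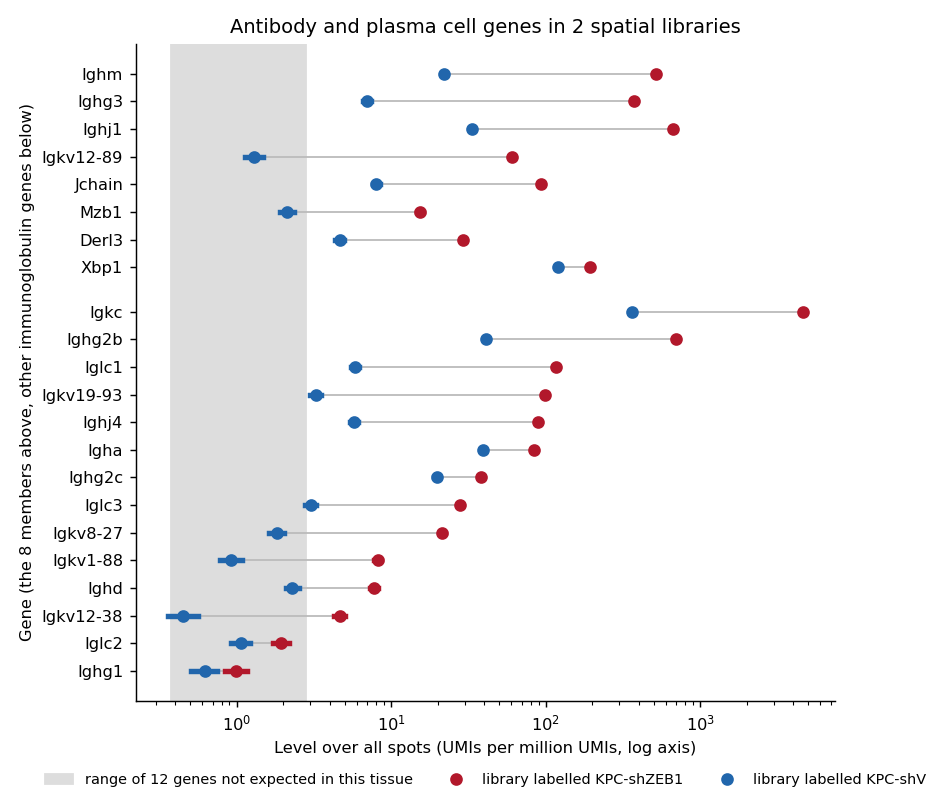
Level of each gene over all spots (CPM, log axis) in the library labelled KPC-shZEB1 (red) and the library labelled KPC-shV (blue), with the 8 members above and 14 other immunoglobulin genes below; thick bars are 95% counting intervals, mostly hidden by the points, and the grey band is the range of 12 genes not expected in this tissue. Every pair but Ighg1 and Iglc2 has its red point outside the band, and Xbp1 has the shortest distance among the members.

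The partners that assemble antibodies differed in the same direction by a smaller ratio. Jchain (ENSMUSG00000067149, chr5:88519809-88527891, minus strand), which encodes the chain that joins IgM and IgA into polymers, was read at 93.9 CPM (92.3 to 95.5) under the KPC-shZEB1 label and 8.04 CPM (7.63 to 8.48) under the KPC-shV label. Mzb1 (ENSMUSG00000024353, chr18:35647267-35649367, minus strand), a cochaperone of the endoplasmic reticulum in B and plasma cells, was read at 15.4 CPM (14.8 to 16.1) and 2.13 CPM (1.92 to 2.36), the latter within the range of genes not expected in this tissue. Both were higher under the KPC-shZEB1 label, by log2 ratios of 3.55 (3.47 to 3.63) for Jchain and 2.85 (2.69 to 3.02) for Mzb1.

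Derl3 and Xbp1 differed least. Derl3 (ENSMUSG00000009092, chr10:75893413-75895941, plus strand), which takes part in the export of misfolded proteins from the endoplasmic reticulum, was read at 29.2 CPM (28.3 to 30.1) under the KPC-shZEB1 label and 4.66 CPM (4.34 to 4.995) under the KPC-shV label, a log2 ratio of 2.65 (2.54 to 2.76). Xbp1 (ENSMUSG00000020484, chr11:5520659-5525893, plus strand) was read at 195 CPM (192 to 197) and 121 CPM (119 to 122), respectively, and its log2 ratio of 0.69 (0.66 to 0.72) had rank 697 of 19011. The 4 antibody chain genes summed gave 4.67 (4.64 to 4.69), Jchain and Mzb1 gave 3.43 (3.35 to 3.50) and Derl3 and Xbp1 gave 0.84 (0.81 to 0.86). In all, 7 of the 8 members had a log2 ratio over 1, against 2.08% of all genes tested, and outside acinar-rich spots (defined below) it was the same 7 members, all but Xbp1, against 3.81%. Nothing is read from these counts, since the genes were selected on this contrast.

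The antibody loci beyond the 4 chain members differed unevenly. The feature list held 24 immunoglobulin genes, of which 10 are kappa variable, 1 kappa constant, 4 lambda constant, 2 heavy joining and 7 heavy constant genes, and these took 0.744% of all UMIs under the KPC-shZEB1 label and 0.0558% under the KPC-shV label. Igkc, the constant gene of the kappa chain, was read at 4619 and 364 CPM (log2 ratio 3.66). Igkv19-93 (99.1 and 3.25 CPM, 4.93), Iglc1 (117 and 5.85 CPM, 4.32), Igkv8-27 (21.4 and 1.82 CPM, 3.56), Igkv12-38 (4.65 and 0.453 CPM, 3.36), Iglc3 (28.0 and 3.02 CPM, 3.22) and Igkv1-88 (8.18 and 0.924 CPM, 3.15) were also higher under the KPC-shZEB1 label, with Igkv8-27, Igkv12-38 and Igkv1-88 within background under the KPC-shV label. Of the 19 other immunoglobulin genes with at least 100 UMIs, 11 had a log2 ratio over 1 and 0 were under -1. Over 1 were 2.08% of all genes tested. Iglc2 (1.94 and 1.06 CPM), Iglc4 (0.641 and 0.814 CPM), Igkv18-36 (0.698 and 0.942 CPM), Igkv2-137 (0.648 and 1.13 CPM), Igkv20-101-2 (0.641 and 0.953 CPM) and Igkv7-33 (0.705 and 0.651 CPM) were read at or near the level of genes not expected in this tissue in both libraries. Igkv14-100 had 0 UMIs in both, which allows up to 3 UMIs in each library.

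The isotypes differed by unequal ratios. Per UMI of Ighm there were 0.724 UMIs of Ighg3 (0.716 to 0.732) under the KPC-shZEB1 label and 0.316 (0.296 to 0.337) under the KPC-shV label, a log2 ratio of 1.20 (1.10 to 1.29). The other class-switched isotypes went the other way relative to Ighm. Igha, the constant gene of IgA, which is made mostly at mucosal surfaces, was read at 84.3 and 39.4 CPM, or 0.162 UMIs per Ighm UMI (0.159 to 0.166) under the KPC-shZEB1 label and 1.79 (1.72 to 1.86) under the KPC-shV label. Ighg2b (IgG2b) was read at 697 and 41.3 CPM, or 1.34 (1.33 to 1.36) and 1.87 (1.80 to 1.94) per Ighm UMI. Ighg2c (IgG2c) was read at 38.3 and 19.7 CPM, or 0.0738 (0.0718 to 0.0759) and 0.893 (0.852 to 0.935) per Ighm UMI. So Igha and Ighg2c, with log2 ratios of 1.10 and 0.96, were the heavy constant genes above background in both libraries whose level differed least, and Ighg3 differed most. Ighd, which marks naive B cells, was read at 7.76 and 2.30 CPM, and Ighg1 at 0.996 and 0.622 CPM, the latter not above the genes not expected in this tissue. The gamma genes were 75.8% to 78.4% identical to Ighg3 over their transcripts, and Ighg2b and Ighg2c 86.8% identical to each other, so part of one gamma gene's UMIs may belong to another.

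Spots differed widely in their balance of IgM and IgG3. At least 20 UMIs of Ighm and Ighg3 together were found in 342 of the spots labelled KPC-shZEB1 but in 42 of those labelled KPC-shV. The median share of Ighg3 in these UMIs was 23.3% (interquartile range 5.03% to 57.4%) over the former spots and 0% (0% to 19.9%) over the latter. Ighg3 held under 10% of them in 120 spots and over 90% in 21 spots labelled KPC-shZEB1, with 201 spots in between. The spots labelled KPC-shV stood mostly at the ends, with 31 under 10%, 5 over 90% and 6 in between. Under the KPC-shV label the Ighg3 reading rested on few places, as 3 spots held 53.5% of the Ighg3 UMIs, and leaving out the 5% of spots with most Ighg3 left 17 UMIs there.

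**Figure D2:**
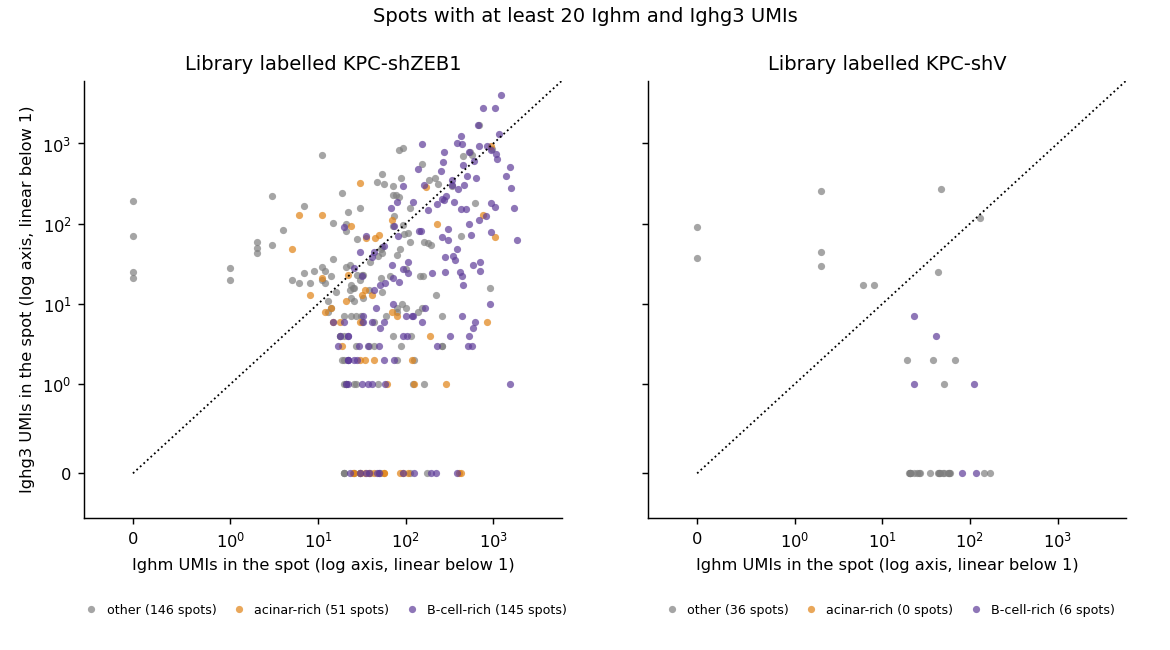
Ighm UMIs against Ighg3 UMIs in each spot with at least 20 UMIs of the 2 genes together (both axes logarithmic above 1 and linear below), by library and by class of spot, with a dotted line at equal counts. The 342 spots labelled KPC-shZEB1 spread over both sides of the line, whereas most of the 42 spots labelled KPC-shV lie near 0 Ighg3 UMIs and a few at high Ighg3 with little Ighm.

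Antibody UMIs were packed into few spots. Under the KPC-shZEB1 label the 5% of spots with most UMIs of a gene (111 spots) held 81.6% of Ighm, 92.5% of Ighg3, 86.1% of Ighj1, 96.5% of Igkv12-89, 79.8% of Jchain and 76.5% of Mzb1, but 29.9% of Derl3 and 14.5% of Xbp1. It took 39 spots to hold 50% of the Ighm UMIs, 20 for Ighg3, 28 for Ighj1, 16 for Igkv12-89, 40 for Jchain, 38 for Mzb1, 230 for Derl3 and 605 for Xbp1. The highest spot had 1853 UMIs of Ighm, 4066 of Ighg3, 6875 of Ighj1, 443 of Igkv12-89, 395 of Jchain, 97 of Mzb1, 20 of Derl3 and 65 of Xbp1. The antibody chain and assembly genes thus shared a steep distribution, and Xbp1, found in 99.6% of the spots, was the least concentrated member.

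Concentration was also high under the KPC-shV label, at far lower counts. There, 178 spots (5%) held 70.8% of Ighm, 98.6% of Ighg3, 93.1% of Ighj1, 85.4% of Jchain and 15.1% of Xbp1, and the highest spot had 171 UMIs of Ighm, 270 of Ighg3, 364 of Ighj1, 50 of Jchain and 28 of Xbp1. Igkv12-89, Mzb1 and Derl3 had at most 11, 8 and 11 UMIs in a spot. For genes this sparse the share held by the leading spots says little, because genes not expected in this tissue, with at most 4 UMIs in any spot, also had 45.9% to 100% of their UMIs in as many spots. The 4 antibody chain genes summed had 82.6% of their UMIs in the leading 5% of spots under the KPC-shZEB1 label and 80.5% under the KPC-shV label.

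**Figure D3:**
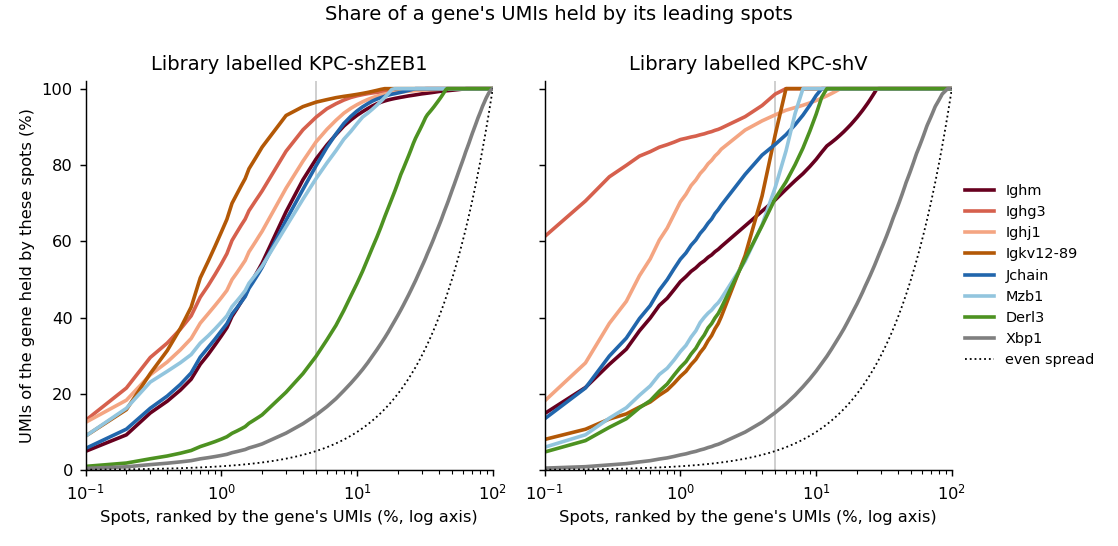
Percent of a gene's UMIs (vertical axis) held by its leading spots (horizontal axis, percent of spots ranked by the gene's UMIs, logarithmic) in each library, with a grey line at 5% of spots and a dotted line for an even spread. In the library labelled KPC-shZEB1 the antibody chain genes, Jchain and Mzb1 lie together far above Derl3 and Xbp1, and Xbp1 lies nearest to the even spread in both libraries.

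The leading spots differed in which chains they held. The spot with most antibody chain UMIs under the KPC-shZEB1 label had 6875 UMIs of Ighj1, 1094 of Ighm, 640 of Ighg3 and 4 of Igkv12-89, beside 8807 of Ighg2b. The next had 4066 UMIs of Ighg3, 2227 of Ighj1, 1236 of Ighm and 61 of Igkv12-89, beside 5565 of Ighg2b. The spot with rank 6 had 2804 UMIs of Ighg3 and 761 of Ighm, beside 65 of Ighg2b. The spot with most Ighm had 1853 UMIs of it but 62 of Ighg3, 1403 of Ighj1 and 286 of Igkv12-89, beside 930 of Ighg2b. The counts of Ighm, Ighg3 and Ighg2b thus stood in different proportions from spot to spot. Of the 20 leading spots of each gene, Ighm shared 12 with Jchain, 10 with Igkv12-89, 8 with Ighj1 and 6 with Ighg3, whereas Ighg3 shared 13 with Ighg2b, 10 with Jchain, 9 with Ighj1 and 2 with Igkv12-89. The kappa segments Igkv12-89 and Igkv19-93 shared 3 of their 20 leading spots. Under the KPC-shV label the leading spot had 270 UMIs of Ighg3, 237 of Ighj1 and 47 of Ighm, the next had 364 of Ighj1, 144 of Ighm and 0 of Ighg3, and Igkv12-89 had 0 UMIs in each of the 10 leading spots.

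With the counts of every spot drawn down to 5000 UMIs, and 4 and 185 shallower spots left aside, any of the 4 antibody chain genes was found in 31.1% of the spots labelled KPC-shZEB1 (29.2% to 33.1%) and in 12.6% of those labelled KPC-shV (11.5% to 13.7%). Without thinning the shares were 78.9% and 41.1%. Ighm was found in 23.5% and 8.64% of the thinned spots, Ighj1 in 20.4% and 5.20%, Ighg3 in 13.8% and 1.13%, Jchain in 13.04% and 2.70%, Mzb1 in 6.23% and 1.16% and Igkv12-89 in 6.05% and 0.564%. Genes not expected in this tissue reached up to 1.31% and 2.14%, respectively. The shares of Ighg3, Mzb1 and Igkv12-89 labelled KPC-shV therefore lie within the range of these genes, and those of the other antibody and assembly genes above it. The upper end of that range was Sag alone, and the next gene, Pde6a, was found in 1.07% of the spots labelled KPC-shV. A share within the range does not make the UMIs background. Ighg3 reached 270 UMIs in a spot there, and Mzb1 was read at 35.3 CPM in the B-cell-rich spots defined below. Derl3 was found in 11.8% and 3.77% and Xbp1 in 60.1% and 45.6% of the thinned spots.

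Spots were then divided by genes outside the set. Acinar-rich spots had over 20% of their UMIs from 24 pancreatic enzyme genes. They numbered 759 under the KPC-shZEB1 label (39.2% of its UMIs) and 251 under the KPC-shV label (3.78%). Of these, 81 and 132 had 20% to 40% acinar UMIs. The class can thus hold other tissue beside normal pancreas, which was not checked on images. B-cell-rich spots, outside these, had over 238 CPM of 14 B cell genes that hold no member (such as Cd79a and Ms4a1) and at least 5 of their UMIs, and numbered 152 and 54. Their median depth was 32345 and 19850 UMIs, below that of the 1309 and 3247 other spots (60159 and 55497 UMIs).

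B-cell-rich spots held most of the antibody chain UMIs under the KPC-shZEB1 label. Ighm was read at 8901 CPM (8823 to 8980) in B-cell-rich spots, 142 CPM (139 to 145) in acinar-rich spots and 193 CPM (190 to 196) in the other spots. Ighg3 was read at 6034, 53.2 and 203 CPM, Ighj1 at 11397, 98.1 and 311 CPM, Jchain at 1559, 16.2 and 45.2 CPM, and Mzb1 at 264, 2.22 and 7.15 CPM in the same order. For each of these 5 genes the B-cell-rich level was the highest, with log2 ratios over the other spots of 5.53 (5.50 to 5.55) for Ighm, 4.90 (4.87 to 4.92) for Ighg3, 5.20 (5.18 to 5.22) for Ighj1, 5.11 (5.05 to 5.17) for Jchain and 5.21 (5.07 to 5.35) for Mzb1. A log2 ratio over 1 in this contrast was found for 13.4% of all genes tested. At least 100 antibody chain UMIs were found in 113 of the 152 B-cell-rich spots, in 92 of the 1309 other spots and in 30 of the 759 acinar-rich spots.

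Igkv12-89 was also highest in B-cell-rich spots. B-cell-rich spots labelled KPC-shZEB1 held 74.8% of its UMIs at 1137 CPM (1109 to 1166), acinar-rich spots held 19.7% at 30.3 CPM (28.9 to 31.8) and the other spots 5.53% at 5.87 CPM (5.35 to 6.43). The log2 ratio of acinar-rich over other spots there was 2.37 (2.22 to 2.52) for Igkv12-89, and -0.44, -1.93 and -1.66 for Ighm, Ighg3 and Ighj1. These ratios hold enzyme UMIs in the total, and the direction for Ighm turns without them, at 347 UMIs of Ighm per 1000000 non-acinar UMIs in acinar-rich and 194 in other spots. Ighg3 (130 and 204) and Ighj1 (239 and 313) stayed lower in acinar-rich spots on that scale, and Igkv12-89 (74.0 and 5.91) higher. At least 1 UMI of Igkv12-89 was found in 10.1% of acinar-rich and 12.4% of other spots, and 1294 of its 1668 acinar-rich UMIs lay in the 81 spots with 20% to 40% acinar UMIs. Along the acinar share of a spot, Igkv12-89 was read at 373 CPM in the 115 spots with 1% to 5% acinar UMIs, 29.2 CPM in the 82 spots with 5% to 20%, 342 CPM in the 81 spots with 20% to 40% and 1.56 CPM in the 426 spots with over 60%. Ighm was read at 3135, 1144, 1223 and 13.9 CPM in these spots and at 631 CPM in the 1264 spots under 1%. Both genes were thus lowest in the most acinar spots, and Ighm was highest in those with 1% to 5% acinar UMIs. Igkv12-89 showed no steady trend, and its intervals overlapped between spots with 1% to 5% (354 to 393 CPM) and 20% to 40% (324 to 362 CPM). Per 1000000 non-acinar UMIs, Igkv12-89 was higher in the spots with 20% to 40%, at 503 against 381.

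The library labelled KPC-shV gave a weaker version with few UMIs. Ighm was read at 476 CPM (438 to 516) in B-cell-rich spots, 18.3 CPM (15.2 to 21.9) in acinar-rich spots and 18.8 CPM (18.1 to 19.5) in the others, and Ighj1 at 377, 9.07 and 31.9 CPM. Jchain was read at 128, 1.69 and 7.38 CPM and Mzb1 at 35.3, 1.23 and 1.92 CPM. These 4 genes were again highest in B-cell-rich spots, where 26.6% of all genes tested had a log2 ratio over 1. Ighg3 did not share this rank clearly, at 12.02 CPM (6.73 to 19.8) from 15 UMIs in B-cell-rich spots against 7.17 CPM (6.77 to 7.59) in the others, and Igkv12-89 stood at background in all classes (1.60, 1.08 and 1.31 CPM). Only 3 of the 54 B-cell-rich spots and 19 of the 3247 other spots had at least 100 antibody chain UMIs, so 9.84% of the antibody chain UMIs lay in B-cell-rich spots, against 67.2% under the KPC-shZEB1 label. With the threshold set at the 95th percentile of each library, a choice made after seeing the data, all spots over it held 13.4% and 42.3%, against 9.86% and 69.5% at the common threshold when the few spots also rich in acinar UMIs are counted.

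The isotype balance followed the classes in part. Ighg3 per Ighm UMI was 0.374 (0.358 to 0.390) in acinar-rich, 0.678 (0.669 to 0.687) in B-cell-rich and 1.05 (1.03 to 1.07) in the other spots labelled KPC-shZEB1. Igha per Ighm UMI was 0.0839, 0.108 and 0.377 in the same order. Under this label, IgG3 and IgA genes were thus lowest against IgM in acinar-rich spots and highest outside both acinar-rich and B-cell-rich spots. Under the KPC-shV label the ratio of Ighg3 to Ighm was 0.0504 (0.0222 to 0.114) in acinar-rich, from 6 Ighg3 UMIs, 0.0253 (0.0151 to 0.0422) in B-cell-rich and 0.382 (0.357 to 0.408) in the other spots.

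**Figure D4:**
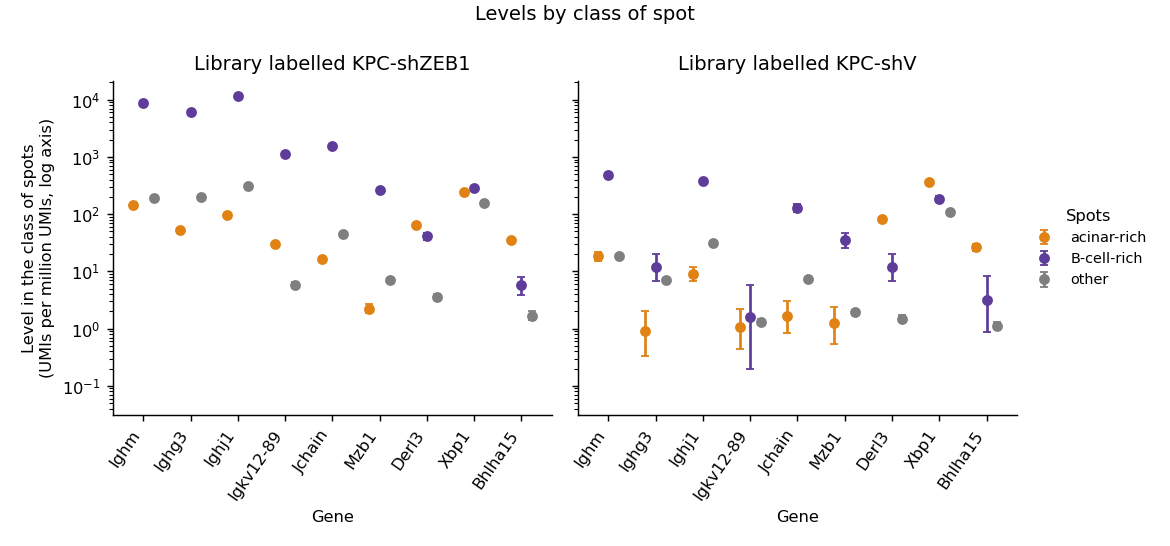
Level of each member and of Bhlha15 (CPM, log axis) in acinar-rich, B-cell-rich and other spots of each library, with 95% counting intervals. The antibody chain genes, Jchain and Mzb1 are highest in B-cell-rich spots of the library labelled KPC-shZEB1, whereas Derl3 and Bhlha15 are highest in acinar-rich spots of both libraries.

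The secretory genes followed the exocrine pancreas as well as the antibody spots. Derl3 was read at 65.3 CPM (63.2 to 67.5) in acinar-rich, 40.9 CPM (35.7 to 46.5) in B-cell-rich and 3.53 CPM (3.13 to 3.97) in the other spots labelled KPC-shZEB1, and at 83.2, 12.02 and 1.50 CPM in those labelled KPC-shV. Acinar-rich spots held 87.6% of the Derl3 UMIs under the KPC-shZEB1 label and 67.5% under the KPC-shV label. Derl3 was thus highest in acinar-rich spots of both sections and next in B-cell-rich spots, and its log2 ratio between the libraries was 1.92 with acinar-rich spots left out, against 2.65 with them. Bhlha15 (also called Mist1), a transcription factor of secretory cells that acinar and plasma cells both express, followed the same order at 35.8, 5.74 and 1.69 CPM labelled KPC-shZEB1. It was read at 26.3, 3.21 and 1.13 CPM in those labelled KPC-shV, where the B-cell-rich value rests on 4 UMIs (0.873 to 8.21 CPM) and its order against the other spots is within counting error. Over all spots Bhlha15 stood at 15.2 and 2.09 CPM, which gave a log2 ratio of 2.86 (2.70 to 3.03) that is close to that of Derl3, in sections whose acinar gene UMIs were at 235201 and 17168 CPM. With acinar-rich spots left out, the ratio of Bhlha15 was 0.78, below the 1.92 of Derl3.

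Xbp1 varied less between classes. It was read at 242 CPM (238 to 247) in acinar-rich, 282 CPM (268 to 296) in B-cell-rich and 156 CPM (153 to 158) in the other spots labelled KPC-shZEB1, and at 369, 185 and 110 CPM in those labelled KPC-shV. Acinar-rich and B-cell-rich spots both exceeded the others in both libraries. With all UMIs in the total, B-cell-rich spots were above acinar-rich ones only under the label KPC-shZEB1. That order turned with acinar gene UMIs left out of the total. Xbp1 then stood at 592 CPM in acinar-rich and 286 CPM in B-cell-rich spots labelled KPC-shZEB1. The levels were 619 and 189 CPM in those labelled KPC-shV, so acinar-rich spots were higher under both labels on that scale. Derl3 and Xbp1 summed were higher in acinar-rich than in all other spots by a log2 ratio of 0.86 (0.83 to 0.89) under the KPC-shZEB1 label and 2.01 (1.95 to 2.06) under the KPC-shV label, where 1.83% and 5.52% of all genes tested had a ratio over 1. Enzyme UMIs enter the total of acinar-rich spots, and per non-acinar UMI the same ratios were 2.14 and 2.75.

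Other genes of the secretory machinery had a higher median than all genes in acinar-rich spots. The list held 40 features (39 genes found of 44) for protein entry, folding and quality control in the endoplasmic reticulum, with Bhlha15 among them. For acinar-rich over all other spots labelled KPC-shZEB1, 3 had a log2 ratio over 1 (Bhlha15 being 1 of them), against 1.83% of all genes tested. A further 18 were under -1, but the median of all genes was itself lower, at -2.24 against -0.82 for the list. Under the KPC-shV label 8 were over 1, against 5.52% of all genes tested, and 9 under -1, with a median of -0.33 against -0.96. Sel1l, a partner of protein degradation in the endoplasmic reticulum, gave 1.75 and 2.21, Herpud1, which works in the same pathway, gave 1.57 and 1.95, and Edem2 gave 0.97 and 1.20. Toward the other end, Pdia4 gave -2.66 and -1.41, Calr -2.54 and -1.22 and Canx -2.44 and -1.89. The genes named here, apart from Bhlha15, were picked after their values were seen. For B-cell-rich over other spots the medians of the list were 0.23 (all genes -0.11) and 0.17 (all genes 0.24). The list thus lay above the median of all genes in 3 of these 4 contrasts.

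**Figure D5:**
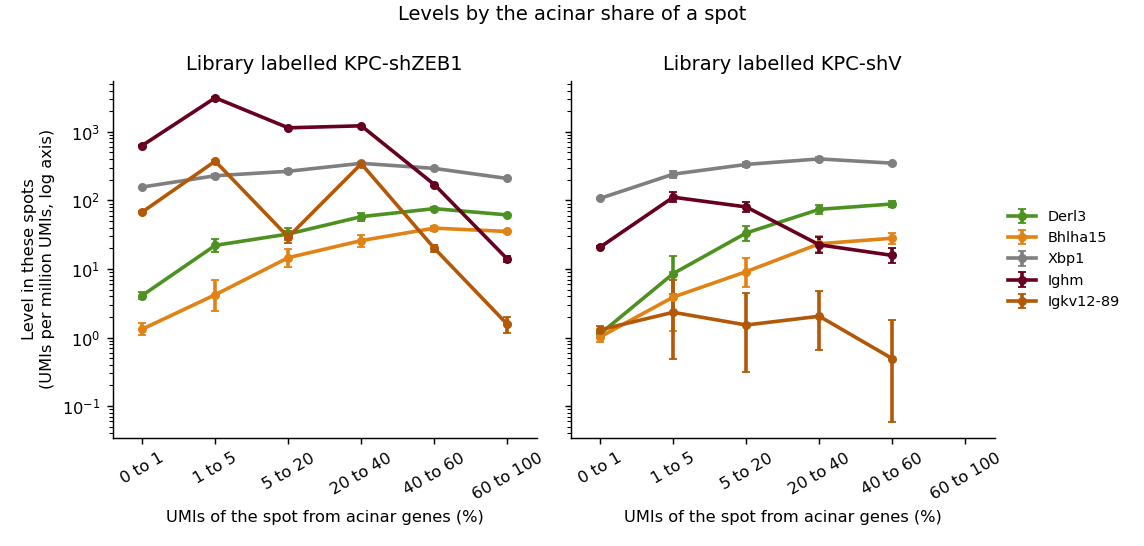
Level of Derl3, Bhlha15, Xbp1, Ighm and Igkv12-89 (CPM, log axis) in spots grouped by the percent of their UMIs from acinar genes, in each library, with 95% counting intervals; no spot labelled KPC-shV lies over 60%. Derl3 and Bhlha15 are higher with each step of the acinar share up to the group from 40% to 60% in both libraries, and Ighm is lowest in the most acinar spots.

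The promoter of Derl3 is shown because Xbp1 and its relative Atf6 are known to act through CCACG boxes beside CCAAT boxes. The window is chr10:75893148-75893447 (plus strand) from the RefSeq promoter table on GRCm38.p6, with matches of CCACG and CCAAT on either strand in capitals.
Derl3: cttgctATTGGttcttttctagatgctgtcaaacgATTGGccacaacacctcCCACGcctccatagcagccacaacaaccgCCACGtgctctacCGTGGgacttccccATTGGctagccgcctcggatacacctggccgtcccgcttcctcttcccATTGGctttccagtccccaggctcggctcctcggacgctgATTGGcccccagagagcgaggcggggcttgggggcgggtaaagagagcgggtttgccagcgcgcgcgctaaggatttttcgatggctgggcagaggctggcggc
It held 3 matches of CCACG, with first bases at -198, -169 and -156 from the start, and 5 of CCAAT (as ATTGG), at -244, -215, -142, -94 and -54. Over all 32851 promoter windows, 3.05% held at least 3 matches of CCACG and 3.37% at least 3 of CCAAT. Neither these nor the octamer nor the longer element TGACGTGG (0.676% of windows) was matched in the promoters of Jchain and Xbp1. Windows for the other members were not used here, apart from that of Igkv12-89.

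Under the KPC-shZEB1 label the members formed 2 groups across spots. Spearman's rho over the 2220 spots was 0.60 between Ighm and Jchain, 0.57 between Ighg3 and Jchain, 0.62 between Ighj1 and Jchain and 0.62 between Jchain and Mzb1. Derl3 gave 0.67 with Bhlha15 and 0.45 with Xbp1, but -0.02 with Ighm, -0.01 with Ighg3 and 0.05 with Jchain. These values describe spots of 1 section that share their depth and neighbours, and no p is given. Under the KPC-shV label the antibody genes were too sparse for a correlation to say much, and the 2 groups were less distinct. Ighm gave 0.26 with Jchain, 0.25 with Xbp1 and 0.13 with Derl3 there, and Derl3 gave 0.30 with Xbp1 and 0.03 with Jchain.

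Ranked by the lower of the libraries' rho with the summed antibody chain genes, the most alike of 9683 genes were Sfrp1, Gpx3, Mrc1, Col1a2, Slit3, Ccr2, Col3a1, Unc93b1, Apoe and Spon1, at 0.446 to 0.479. Col1a2 and Col3a1 encode fibrillar collagens, and Mrc1 encodes the mannose receptor of macrophages. Col1a2 gave 0.63 labelled KPC-shZEB1 and 0.46 labelled KPC-shV, and Mrc1 gave 0.57 and 0.46. For each of these 10 genes the lower rho was that under the KPC-shV label, where the antibody genes are sparse, so their order rests on that library. The CPM of a spot has the same total for every gene, so these values share that denominator.

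Some further plasma cell genes were higher in spots with more antibody UMIs. The 1461 spots labelled KPC-shZEB1 outside acinar-rich ones were grouped by their antibody chain UMIs. Pou2af1, a coactivator of octamer-dependent genes in B lineage cells, was read at 1.57 CPM (0.960 to 2.43) in the 210 spots with 0 such UMIs, 1.32 CPM (1.03 to 1.66) in the 868 spots with 1 to 9, 15.6 CPM (13.04 to 18.5) in the 178 spots with 10 to 99, 51.1 CPM (45.6 to 57.0) in the 142 spots with 100 to 999 and 159 CPM (145 to 173) in the 63 spots with 1000 or more. Irf4, a transcription factor needed for plasma cells, was read at 3.30, 4.43, 8.78, 15.9 and 40.4 CPM, and Tnfrsf17, the receptor BCMA, at 1.10, 1.46, 2.81, 4.16 and 6.02 CPM in the same order. From the spots with 1 to 9 such UMIs upward, these 3 genes were higher at each step under the KPC-shZEB1 label, although the counting intervals of neighbouring steps overlapped for Tnfrsf17, which had 14 to 80 UMIs in a group. Prdm1, which encodes Blimp-1, showed no such order, at 39.7, 35.3, 29.2, 26.6 and 39.5 CPM, and Sdc1, which encodes the plasma cell marker CD138 and is also made by epithelial cells, was lower at each step, at 1553, 1285, 681, 369 and 253 CPM. The spots labelled KPC-shV did not show this order at the top for Irf4 and Tnfrsf17, with Irf4 at 1.69, 4.06, 10.4 and 9.90 CPM, Tnfrsf17 at 1.41, 1.57, 2.29 and 1.65 CPM and Pou2af1, whose last values lay within counting error of each other, at 0.897, 1.92, 11.0 and 12.4 CPM in the spots with 0, 1 to 9, 10 to 99 and 100 to 999 such UMIs, the last from 2 to 15 UMIs of each gene.

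The secretory members followed a like order in the same spots. Derl3 was read at 2.36, 2.07, 8.55, 18.3 and 54.2 CPM and Xbp1 at 155, 148, 172, 218 and 338 CPM, from the spots with 0 to those with 1000 or more antibody chain UMIs. Jchain was read at 2.44, 3.57, 60.5, 604 and 2346 CPM and Mzb1 at 0.707, 1.63, 16.6, 92.2 and 370 CPM. Derl3 and Xbp1 were therefore highest in the spots richest in antibody UMIs outside acinar-rich ones, although over all spots the rho of Derl3 with the antibody chain genes lay near 0. Under the KPC-shV label no such spot had 1000 antibody chain UMIs, and in the 22 spots with 100 to 999 Derl3 was read at 8.25 CPM (3.96 to 15.2) from 10 UMIs, against 1.03 CPM (0.839 to 1.25) in the 1943 spots with 0.

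The B cell genes and the other plasma cell genes listed differed less between the libraries than the antibody chain genes. Acinar genes summed also differed less, at a log2 ratio of 3.78 against 4.67 for the antibody chain genes. Nothing is read from this order, since the antibody chain genes were selected on this contrast. Of 13 B cell genes with at least 100 UMIs, 5 had a log2 ratio over 1, against 2.08% of all genes tested. The median of the 13 was 0.87 against -0.48 over all genes with 100 UMIs, and the list summed to 56.0 and 31.4 CPM. With acinar-rich spots left out, 9 of the 13 were over 1, against 3.81% of all genes, at a median of 1.47 against -0.01. Cd79a and Ms4a1, which mark B cells, gave 1.65 and 1.44, Cd79b gave 1.43, and Pax5, which plasma cells switch off, was lowest at -0.73. Of 19 plasma cell genes outside the set, 4 were over 1 (Pou2af1 at 2.31, Slamf7 at 1.52, Tent5c at 1.39 and Fkbp11 at 1.02), whereas Irf4 gave 0.66, Tnfrsf17 -0.15, Prdm1 -0.44 and Sdc1 -0.86, the lowest. Tnfrsf17 stood at 1.37 and 1.51 CPM, within the range of genes not expected in this tissue. Over all spots, Sdc1, Prdm1 and Tnfrsf17 were thus not higher under the KPC-shZEB1 label, whereas the list of 19 had a median of 0.63. Sdc1 is also made by epithelial cells and Tnfrsf17 stood at background, so neither stands for plasma cells alone. With acinar-rich spots left out, Pou2af1 gave 2.92, Slamf7 2.13, Tent5c 0.88 and Fkbp11 0.15. There Irf4 gave 1.26, Tnfrsf17 0.36, Prdm1 0.18 and Sdc1 -0.23, and 7 of the 19 were over 1, against 3.81% of all genes. The median of the 19 was 0.54, against -0.01 over all genes.

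Over all spots, 2.08% of the 19011 genes tested were over 1 and 1558 were under -1. A count of 0 in a short list therefore says little. Germinal center genes gave 0 of 7 over 1 and 1 under -1. With acinar-rich spots left out, 2 of these 7 were over 1, against 3.81% of all genes, and 1 was under -1. Their median was 0.65 there, against -0.01 over all genes. Over all spots, Gcsam had the highest ratio of that list (0.69) and Basp1 the lowest (-1.89). Of 11 genes that feed or attract plasma cells, Cxcl13, a chemokine of B cell follicles, was over 1 (3.42 and 1.34 CPM, 1.35), and Ccl28 was lowest at -0.92. Of 12 genes that carry or bind antibodies 0 were over 1, with Fcgrt highest (0.26), Fcamr lowest (-0.68) and Pigr, which carries IgA and IgM across epithelium, at -0.09. T cell genes were also higher, with 8 of 10 over 1 and 1 under -1 (highest Cd3g, 2.18, lowest Trbc1, -1.63) and a sum of 160 and 104 CPM, and so were acinar genes, with 24 of 24 over 1 at a median of 4.25, against 3.93 for the members, and Cela1, an elastase gene, highest at 7.02. None of the genes of the B cell, T cell and acinar lists that were measured had 0 UMIs in either library, and their part in the antibody difference was not tested. With acinar-rich spots left out, the antibody chain log2 ratio was 5.24, and with B-cell-rich spots left out it was 3.15.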

How the data were processed

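Visium CytAssist libraries (probe-based) were made by the authors from frozen, methanol-fixed tumor sections, mapped reads to mm10 (GRCm38) with Space Ranger 2.0.1 per the labels, and deposited unnormalized UMI counts for every gene in the spots over tissue. Images, spot positions and the single-cell RNA sequencing were not used here. Both libraries (KPC-shZEB1 and KPC-shV, 1 each) were grouped by their titles.

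From the deposited counts, CPM and log2 ratios were computed with exact Poisson and conditional binomial intervals at the 95% level. Shares of spots had Clopper-Pearson intervals and isotype ratios a Poisson delta interval. A count of 0 was treated as allowing 3 UMIs, and ratios over many genes were taken where the groups compared held at least 100 UMIs. Since 1 CPM is over 100 UMIs in each library, counting error is small for most levels over all spots, but values of a class of spots can rest on few UMIs. Variation between animals was not measured. The computation was tested on simulated data. Statistics used scipy 1.17.1 and numpy 2.4.6 under Python 3.11.15, and plots used matplotlib 3.10.9. Of 19465 features, 19451 matched GENCODE M21. The acinar list had 24 of 29 genes in the feature list.

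The members, the gene lists and the alternatives were chosen with earlier results of these data known. Genes named are the members, all other immunoglobulin genes, the highest log2 ratio of the lists described and the lowest of all but the acinar and endoplasmic reticulum lists. Bhlha15, Sdc1, Tnfrsf17, Prdm1, Irf4, Pou2af1, Ms4a1, Cd79a and Pigr are also named. So are the 10 genes most like the summed antibody chain genes among those with at least 1000 UMIs in each library. Other genes named from the lists (Cd79b, Slamf7, Tent5c, Fkbp11, Sel1l, Herpud1, Edem2, Pdia4, Calr and Canx) were picked after their values were seen. No doublet caller was run and no cell type makeup was estimated, because a spot is a region.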

Additional observations from a re-analysis of the deposited data

How the results depend on the processing

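No paired analysis was possible because each group has 1 library, and for the same reason no replicate could be left out. All 8 members kept a log2 ratio above 0 under all 7 alternatives tried for each, with Ighg3 between 4.32 and 8.13, Igkv12-89 between 2.93 and 6.02 and Xbp1 between 0.50 and 1.17. The value of 8.13 rests on 17 Ighg3 UMIs left under the KPC-shV label. Since the genes were selected on this contrast, nothing is read from their kept sign. No log2 ratio followed through these alternatives changed sign, but many moved by more than their counting interval. Outside them, 3 directions given above did turn. These were Ighm in acinar-rich against other spots and Xbp1 in B-cell-rich against acinar-rich spots (KPC-shZEB1), each without acinar UMIs in the total, and Zeb1 between the libraries without acinar-rich spots. In the order antibody chain, assembly (Jchain and Mzb1) and secretory (Derl3 and Xbp1) genes, the log2 ratio was 5.24, 4.004 and 0.60 without acinar-rich spots, 5.15, 3.91 and 1.32 with median-of-ratios scaling (the median gene stood at -0.48), 5.03, 3.79 and 1.20 without acinar UMIs in the total, 4.75, 3.66 and 0.60 as a mean over spots of their CPM and 5.04, 3.20 and 1.67 as the mean over genes. Without B-cell-rich spots the antibody chain and assembly ratios were 3.15 and 2.03. Without the 5% of spots with most UMIs of the genes in question, the antibody chain and secretory ratios were 4.50 and 0.90.

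The isotype log2 ratio was 1.65 without the leading 5% of spots and 1.44 as a mean over spots with 20 UMIs. The share of antibody chain UMIs in the leading 5% of spots was 81.3% (KPC-shZEB1) and 82.2% (KPC-shV) after thinning, 80.6% and 77.0% by CPM of each spot, and 75.3% and 80.9% without acinar-rich spots. The order of the libraries in this share thus turned after thinning and without acinar-rich spots. Spots with an antibody chain UMI were 78.9% and 41.1% without thinning, 19.9% and 4.63% with at least 2 UMIs, 51.3% and 24.7% at 20000 UMIs, and 37.1% for KPC-shZEB1 without acinar-rich spots. For Derl3 and Xbp1 in acinar-rich spots, the log2 ratio was 0.90 (KPC-shZEB1) with a threshold of 5%, 0.74 and 1.89 with 40%, 2.14 and 2.75 without acinar UMIs in the total, 0.82 and 1.79 by CPM of each spot, and 0.95 for KPC-shZEB1 without B-cell-rich spots. Apart from the total, the cause was not tested. Low counts limit Igkv12-89, Mzb1 and Ighg3 in the library labelled KPC-shV, where they had 224, 367 and 1199 UMIs, although that library had the larger total of UMIs.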
